A study of Rattus norvegicus with 10 samples.

Results

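Peptide hormones are made as longer precursors and cut inside secretory granules. The genes described here encode enzymes of that cutting and trimming, the related trans-Golgi enzymes Furin and Cpd, and proteins of the granule membrane. They also include Ica1, which acts at the Golgi and on immature granules. The list named 10 genes, and their probesets were taken by symbol: every probeset whose platform annotation gave a single gene symbol equal to a member. That found 11 probesets of 8 genes, among 31099 probesets and 14217 named genes in all. The 8 genes were Pcsk2, Furin, Cpe, Cpd, Pam, Ptprn, Ptprn2 and Ica1, while Pcsk1 and Slc30a8 are not analysed here. Of the 8 genes 6 had 1 probeset, Cpd had 2 and Pam had 3. A gene is described from its brightest probeset unless another is named.

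The samples were pancreatic islets, the clusters of hormone cells of the pancreas, from adult male Wistar rats aged 7 weeks and weighing 225 to 250 g, which were housed singly. In each diet group 5 arrays carried independent samples: the standard group ate chow with 8% of its calories from fat, and the cafeteria group ate a diet with 66%, both for 10 days. Islets were picked by hand after collagenase digestion, so each array reads a mixture of hormone cells and what stayed attached to them, and fewer cells of a type cannot be told apart from less RNA per cell. Groups follow the title, source name and description of each sample (3 fields); in all 10 samples the diet characteristic names the other diet, and if that field were right every direction below would turn while sizes and p-values stayed. Values are linear array signals, and a difference is the cafeteria mean minus the standard mean of log2(signal + 14.15).

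In a β cell or α cell the precursor enters the granule with its enzymes. The prohormone convertases cut after pairs of basic residues, carboxypeptidase E then removes those residues, and peptidylglycine α-amidating monooxygenase converts an exposed glycine into a C-terminal amide. Pcsk2, known as PC2, is the convertase that releases glucagon in α cells and helps mature insulin in β cells. Ptprn (IA-2) and Ptprn2 (phogrin) span the granule membrane, resemble tyrosine phosphatases without the usual activity, and are targets of autoantibodies in type 1 diabetes, as is Ica1.

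Start regions are shown for the 4 genes whose signals differed most between diets. Any link between their sequences and the signals was not tested. RefSeq's table for assembly GRCr8 held a start region for 6 of the 8 genes. The 250 bases before the start lay at chr3:151333688-151333937 (plus strand) for Pcsk2, chr16:29796457-29796706 (plus strand) for Cpe, chr9:105570118-105570367 (plus strand) for Pam and chr9:84204824-84205073 (minus strand) for Ptprn. Each is written 5′ to 3′ towards the gene. Capitals mark TGACG, a core of the cAMP response element, and GGGCGG, the GC box bound by Sp1, on either strand; these motifs were chosen with the data known.
Pcsk2: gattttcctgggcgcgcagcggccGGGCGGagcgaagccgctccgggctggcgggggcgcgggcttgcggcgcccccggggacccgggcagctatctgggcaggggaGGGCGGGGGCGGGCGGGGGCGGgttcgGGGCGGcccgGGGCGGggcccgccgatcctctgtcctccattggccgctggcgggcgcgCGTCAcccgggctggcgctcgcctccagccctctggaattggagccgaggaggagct
Cpe: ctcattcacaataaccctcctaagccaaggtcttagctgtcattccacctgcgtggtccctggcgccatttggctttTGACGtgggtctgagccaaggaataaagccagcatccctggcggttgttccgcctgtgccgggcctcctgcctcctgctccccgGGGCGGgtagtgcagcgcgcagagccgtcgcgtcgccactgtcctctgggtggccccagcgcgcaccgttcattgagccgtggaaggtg
Pam: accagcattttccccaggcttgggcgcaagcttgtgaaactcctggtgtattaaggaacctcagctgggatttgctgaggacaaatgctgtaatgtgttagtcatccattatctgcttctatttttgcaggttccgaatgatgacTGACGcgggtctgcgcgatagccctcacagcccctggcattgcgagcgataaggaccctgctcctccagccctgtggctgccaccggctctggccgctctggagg
Ptprn: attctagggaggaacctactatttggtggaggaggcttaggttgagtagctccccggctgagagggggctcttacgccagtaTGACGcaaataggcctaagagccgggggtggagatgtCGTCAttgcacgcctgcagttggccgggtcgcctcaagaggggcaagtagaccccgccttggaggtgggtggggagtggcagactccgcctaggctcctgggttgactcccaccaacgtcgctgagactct
The letters TGACG stood in 5 of the 6 start regions (Pcsk2, Cpe, Pam, Ptprn and Ica1), against 18.2% of the 33465 start regions of that length. Ptprn and Ica1 held 2 matches each, and the first base of those in Ptprn lay 168 and 131 bases before the start. GGGCGG stood in 4 of 6 regions, against 30.5% of all. Pcsk2 held 7 matches to it, some overlapping, in a region with 79.6% G and C, where the median over all regions was 51.2%. The 6 regions ran from 55.2% to 79.6%, all above that median. The shares given for all regions were not matched for G and C. The full palindrome TGACGTCA, which contains TGACG on both strands, was in 0 of the 6 regions and in 1.59% of all. The E box CANNTG was in 4 of 6 and in 65.5% of all. A match is a run of letters and not a measured binding site.

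Signals of most of the 8 genes were high in these islets. Of the 8 brightest probesets, 7 lay above percentile 97 of all non-control probesets by mean log2 level, the exception being Furin at percentile 79.4. Cpe, at percentile 99.96, read 62.7% to 77.8% of the highest signal on its array, and Pcsk2 read 52.8% to 61.9%. Whether signals this high were compressed was not measured. Islet hormone genes were among the brightest on the array, as the labelled tissue would have them: Gcg averaged 30404 ± 3329 (SD, n = 5) and Iapp 28677 ± 2202 (SD, n = 5) in the standard group. Array medians lay between 150.8 and 173.2. The highest signal on an array ran from 36433 to 49016, and the cafeteria replicates 3 and 5 had the 2 highest of these.

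No gene of the set passed the test across all probesets. With limma and Benjamini-Hochberg adjustment 0 of 18625 tested probesets had an adjusted p under 0.05 (0% called), while before adjustment 1026 higher and 915 lower probesets had a p under 0.05. The limma adjusted p-values of the 8 genes ran from 0.448 to 0.969. Cafeteria means were higher for 7 of 8 genes, against 51.4% of all tested probesets, and the median difference was 0.16 against 0.006 over all. At an unadjusted limma p under 0.05, 3 of 8 genes were higher (Ptprn, Cpe and Pcsk2) and 0 lower, where 5.51% of all tested probesets were higher and 4.91% lower by that rule. The exact permutation test of each gene alone gave p under 0.05 for 4 of 8 (those 3 and Pam), where 5.1% of all tested probesets were higher by that test. Among the 311 probesets at or above level percentile 99, where 4 of the 8 genes lie, 68.8% were higher in the cafeteria group, 9.97% were higher at an unadjusted limma p under 0.05, and 18.3% were higher by the permutation test.

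Both counts moved with the scaling and with single arrays of either group. The count at an unadjusted limma p under 0.05 was 1 of 8 without any 1 of the 5 standard arrays, without cafeteria replicate 3 or without cafeteria replicate 5. It was also 1 with the replicate number as a block or with the immune index or the GAPDH control ratio in the model. With trended and robust variance it was 4. It was 2 with array weights, with the acinar index in the model, with no filter on low values or without cafeteria replicate 2. The exact permutation count was 3 without standard replicate 1 and 2 without standard replicate 2, 3, 4 or 5. Without cafeteria replicate 5 it was 3 higher and 1 lower (Ptprn2), and the median difference was 0.090. With quantile normalization, which gives every array the same distribution of signals, 1 gene was higher by limma and the median was 0.075. By exact permutation 2 genes were then higher and 1 lower (Ptprn2). Cpe, Pcsk2 and Pam lie at the highest ranks, where quantile normalization also removes differences between arrays in the brightest signals. How much of each gene's difference it removed in that way was not tested. When arrays were instead centred on their medians, 0 of 8 genes passed either single-gene test. Directions held for the 7 higher genes under all 23 other settings of limma.

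**Figure D1:**
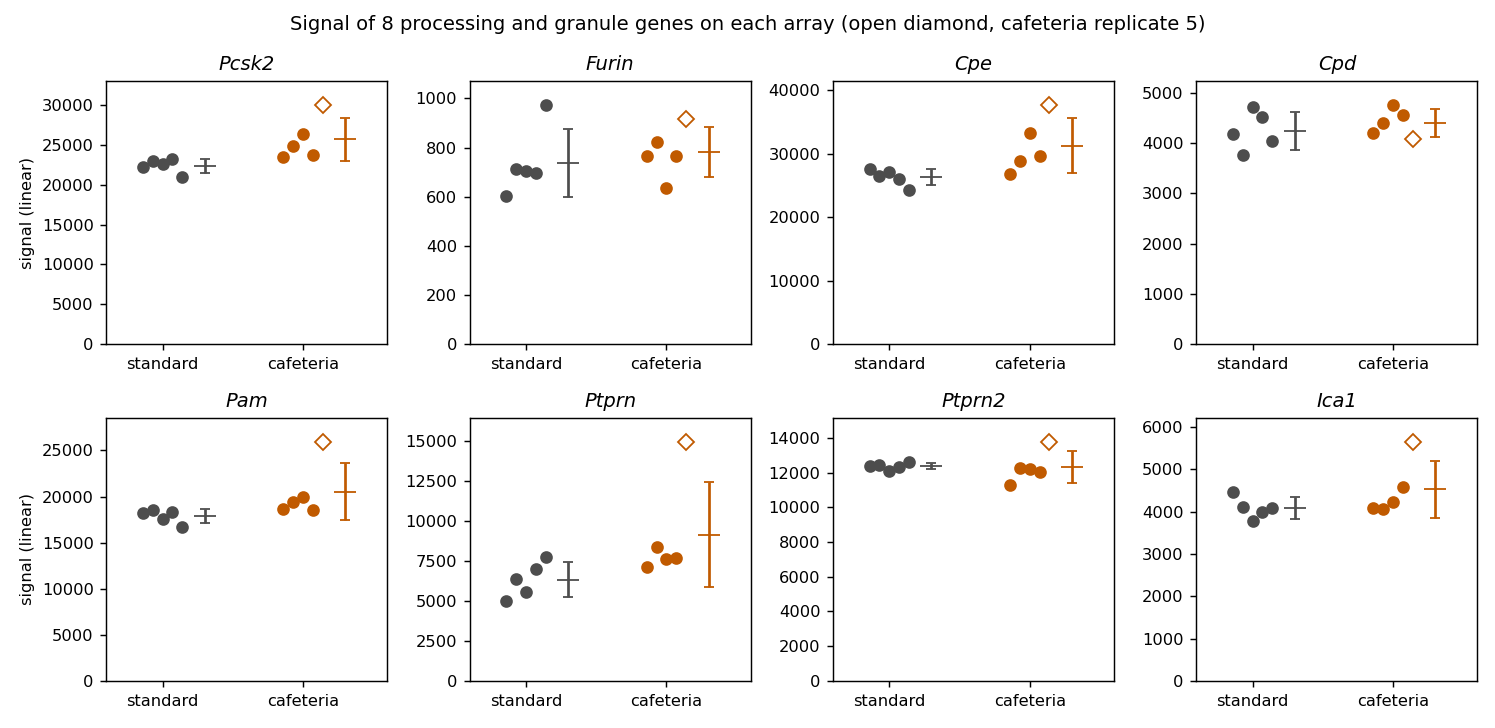
Signal (vertical axis, linear and starting at 0) of the brightest probeset of each gene on the 5 standard and 5 cafeteria arrays, with the mean and SD of each group to the right of its points. The open diamond is cafeteria replicate 5, the highest of all 10 arrays for 6 of the 8 genes.

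Pcsk2 was the sole gene of the set whose groups did not overlap. Its signal was 22261, 22900.5, 22624, 23190 and 20941 on standard replicates 1 to 5, and 23487, 24794, 26398, 23733 and 29984 on cafeteria replicates 1 to 5. The gap was narrow: the lowest cafeteria array exceeded the highest standard array by little, and cafeteria replicate 5 stood above the rest. Group means were 22383 ± 876 (SD, n = 5) and 25679 ± 2666 (SD, n = 5). The log2 difference was 0.19 (SE 0.084, 95% confidence interval 0.0083 to 0.38, limma adjusted p = 0.464), or 1.14-fold from the log2 means. The exact two-sided permutation p was 0.00794, the smallest that the divisions of 10 arrays into groups of 5 can give. Full separation with the cafeteria group higher was found for 0.988% of all tested probesets and 3.86% of those at or above level percentile 99. Without cafeteria replicate 5 the difference was 0.14 and the groups stayed apart; quantile normalization left 0.080 with an exact permutation p of 0.0476, and median centring 0.16 with 0.0794.

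Furin is the convertase of the trans-Golgi network, present in nearly all cell types, and it cuts growth factor precursors and receptors. It read 604, 712, 703, 698 and 973 on standard replicates 1 to 5, and 766, 821, 635, 764 and 918 on cafeteria replicates 1 to 5. The 2 highest arrays came from opposite groups, standard replicate 5 and cafeteria replicate 5, and the ranges overlapped widely. The difference was 0.088 (SE 0.133, 95% confidence interval -0.20 to 0.38; limma adjusted p = 0.83). It fell to 0.028 without cafeteria replicate 5 and was 0.19 without standard replicate 5, so its size rested on single arrays.

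Cpe, the carboxypeptidase of regulated secretory granules, had the highest level percentile of the set. Its signal was 27543, 26451, 27148, 26031 and 24209 on standard replicates 1 to 5, and 26714, 28900.1, 33245, 29657 and 37654 on cafeteria replicates 1 to 5. All cafeteria arrays but replicate 1 were above the highest standard array. Means were 26277 ± 1297 (SD, n = 5) and 31234 ± 4290.1 (SD, n = 5). The difference was 0.24 (SE 0.099, 95% confidence interval 0.023 to 0.46; limma adjusted p = 0.448), or 1.18-fold, with an exact permutation p of 0.0238. It was 0.17 without cafeteria replicate 5. Quantile normalization left 0.057, with an exact permutation p of 0.167, and median centring 0.20 with 0.0714. Leaving out standard replicate 2, 4 or 5 raised the exact permutation p to 0.0556, 0.0556 and 0.0635.

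Cpd, a related carboxypeptidase that cycles through the trans-Golgi network and trims products of furin, differed little. Its brighter probeset read 4185, 3761, 4720.1, 4508 and 4040.4 on standard replicates 1 to 5, and 4198, 4387, 4754, 4553 and 4074 on cafeteria replicates 1 to 5. The ranges nearly coincided, and cafeteria replicate 5 was the lowest array of its group. The difference was 0.052 (SE 0.084, 95% confidence interval -0.13 to 0.24; limma adjusted p = 0.843). The interval holds changes in either direction, so similar levels are not shown by this p. The second probeset of Cpd read 3.0 to 7.7 on every array, at percentile 0.90, below the filter on low signals, and was not tested.

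Pam, the amidating enzyme, followed Pcsk2 closely. Its bright probeset read 18160, 18572, 17614, 18285 and 16689 on standard replicates 1 to 5, and 18701, 19407, 19919, 18538 and 25953 on cafeteria replicates 1 to 5. The groups overlapped only in that cafeteria replicate 4 lay just below standard replicate 2, while cafeteria replicate 5 stood far above the other 9 arrays. Means were 17864 ± 743 (SD, n = 5) and 20504 ± 3096 (SD, n = 5), or 19142 ± 641 (SD, n = 4) in the cafeteria group without replicate 5. The difference was 0.19 (SE 0.0997, 95% confidence interval -0.031 to 0.41; limma adjusted p = 0.52), with an exact permutation p of 0.0159. Without cafeteria replicate 5 it was 0.10. It was 0.071 with quantile normalization (exact permutation p = 0.111) and 0.15 with median centring (0.214). Leaving out standard replicate 3 or 5 gave an exact permutation p of 0.0556.

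The other Pam probesets were dim. That at percentile 43.7 read 66 to 128.5 on the standard arrays and 98.8 to 152.3 on the cafeteria arrays, with a difference of 0.24 (SE 0.167; limma adjusted p = 0.621). Here cafeteria replicate 1, not replicate 5, was highest. Standard replicate 5 was lowest, as for the bright probeset. The third, at percentile 23.0, was below the filter and had group means of 43.4 and 42.8, with cafeteria replicate 5 highest at 76.2 and cafeteria replicate 1 lowest at 24.4.

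Ptprn had the largest difference of the 8 genes. It read 5009, 6345, 5543, 6982 and 7718 on standard replicates 1 to 5, and 7087, 8377, 7632, 7663 and 14948 on cafeteria replicates 1 to 5. Cafeteria replicate 5 stood 1.94-fold above the mean of the other cafeteria arrays, and standard replicate 5 lay above 3 of the cafeteria arrays. Means were 6319 ± 1086 (SD, n = 5) and 9141 ± 3278 (SD, n = 5), or 7690 ± 529 (SD, n = 4) in the cafeteria group without replicate 5. The difference was 0.49 (SE 0.200, 95% confidence interval 0.049 to 0.93, limma adjusted p = 0.448), or 1.40-fold from the log2 means. The exact permutation p was 0.0317. Without cafeteria replicate 5 the difference was 0.30 (exact permutation p = 0.0794). The p also rose without standard replicate 1 (0.0952), 2 (0.0556), 3 (0.0714) or 4 (0.0556). Unlike Cpe, Pam and Pcsk2, the difference of Ptprn was nearly kept by quantile normalization, at 0.45; median centring also gave 0.45, with an exact permutation p of 0.103. How the genes differ from one another in this was not tested. Pam, Pcsk2 and Cpe lay at level percentiles 99.81, 99.93 and 99.96, and Ptprn at 98.68. Whether the smaller differences after quantile normalization reflect array scaling at those ranks was not tested.

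Ptprn2, the paralog of Ptprn, had close group means. It read 12364, 12450.4, 12117, 12347 and 12603 on standard replicates 1 to 5, and 11255, 12275, 12225, 12025 and 13780.0 on cafeteria replicates 1 to 5. The standard arrays lay close together, and the cafeteria arrays held both the lowest and the highest of the 10. The difference was -0.011 (SE 0.072, 95% confidence interval -0.17 to 0.15; limma adjusted p = 0.969). Without cafeteria replicate 5 it was -0.052 (exact permutation p = 0.0476), and with quantile normalization -0.075 (exact permutation p = 0.0238), while without cafeteria replicate 1 it turned to 0.021. The difference between the paralogs was not tested.

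Ica1 encodes a BAR-domain protein that acts at the Golgi and on immature granules. Its signal was 4466, 4115, 3778, 3997 and 4083 on standard replicates 1 to 5, and 4095, 4066, 4225, 4590.0 and 5655 on cafeteria replicates 1 to 5. The ranges overlapped except for cafeteria replicates 4 and 5, which were above all standard arrays. The difference was 0.14 (SE 0.101, 95% confidence interval -0.086 to 0.36; limma adjusted p = 0.634), and 0.055 without cafeteria replicate 5.

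**Figure D2:**
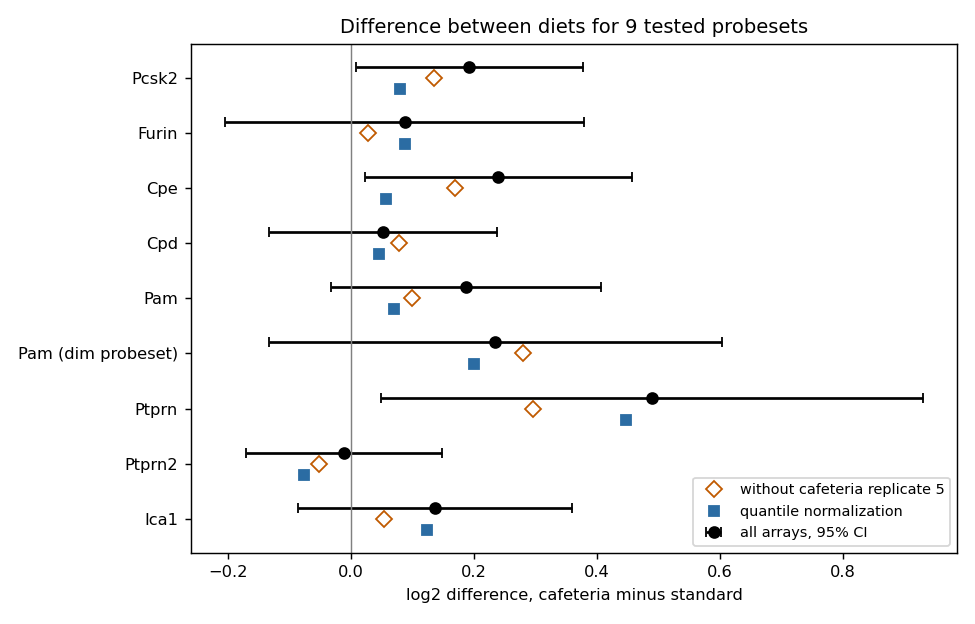
Log2 difference, cafeteria minus standard, for the 9 tested probesets of the 8 genes: filled circles with 95% confidence intervals use all arrays, open diamonds leave out cafeteria replicate 5, and squares follow quantile normalization. The interval excludes 0 for Ptprn, Cpe and Pcsk2 alone; leaving out the array brings Ptprn from 0.49 to 0.30, and quantile normalization brings Cpe from 0.24 to 0.057.

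Cafeteria replicate 5 was the array on which the set stood out. It was the highest of the 10 for 6 of 8 genes (all but Furin and Cpd), against 16.4% of all tested probesets and 38.2% of the 1553 probesets at or above level percentile 95. On the log2 scale it exceeded the mean of the other cafeteria arrays by a median of 0.33 over the 8 genes. Over all tested probesets that median was -0.026, and over those at or above percentile 99 it was 0.15. The islet hormone cell index, the mean log2 value of 9 markers, was also highest on cafeteria replicate 5, at 14.65, and its difference between diets was 0.16 with that array and 0.11 without it. Standard replicate 5 was the lowest array for Pcsk2, Cpe and Pam, the 3 genes at the highest level percentiles, and it also had the lowest top signal of any array.

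**Figure D3:**
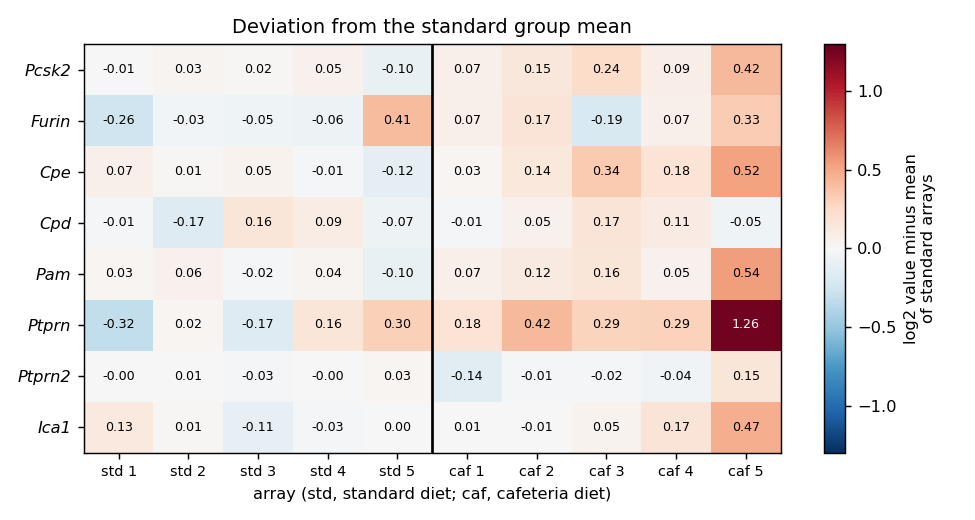
Log2 value of each gene (rows) on each array (columns) minus the mean of the 5 standard arrays, with red above and blue below that mean. The cafeteria replicate 5 column is red for 7 genes, up to 1.26 for Ptprn, and -0.054 for Cpd.

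Pam and Cpe varied with Pcsk2 from array to array when the deviations of both diet groups were pooled. Deviations from the group mean were correlated with those of Pcsk2 over 10 arrays, in 7 relations tested by exact permutation within groups. Pam had r = 0.950 (exact permutation p = 0.00125, adjusted 0.00875) and rho = 0.879 (exact permutation p = 0.00125, adjusted 0.00875). Cpe had r = 0.919 (exact permutation p = 0.00597, adjusted 0.0209) and rho = 0.794 (exact permutation p = 0.0298, adjusted 0.104), so its rho did not pass adjustment. Among the standard arrays other than replicate 5, Cpe ran in the reverse order of Pcsk2. Replicate 5 of that group was the lowest for both. Leaving out the 2 arrays farthest from the median of Pcsk2, cafeteria replicates 5 and 1, gave r = 0.865 for Pam and 0.748 for Cpe. The points share each array's scaling, and all 3 probesets lie at the bright end of it.

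For the other 5 genes neither r nor rho with Pcsk2 passed. Ptprn2 (r = 0.805, rho = 0.467), Ptprn (r = 0.665, rho = 0.467) and Ica1 (r = 0.651, rho = 0.321) had exact permutation p-values for r of 0.0549, 0.124 and 0.148, adjusted to 0.128, 0.207 and 0.207, and for rho of 0.245, 0.196 and 0.445 (adjusted 0.429, 0.429 and 0.519). Without the same 2 arrays these r were -0.038, -0.13 and -0.20, so the pooled values rested on those arrays. Furin (r = 0.002, rho = -0.333; exact permutation p = 0.996 and 0.381, adjusted 0.996 and 0.519) and Cpd (r = -0.094, rho = 0.055; exact permutation p = 0.789 and 0.889, adjusted 0.92 and 0.889) showed no relation over all arrays, and without those 2 arrays their r were -0.63 and 0.21. Across 10300 other genes the likest to Pcsk2 were ribosomal protein genes: Rpl19 (r = 0.973), Rpl5 (r = 0.972) and Rpl37a (r = 0.966), chosen as the highest and so given with no test. Pam ranked 9 and Cpe 21 on that scale.

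The hormone precursors these enzymes act on had differences of a similar size, none past the test. Ins1 differed by 0.16 (SE 0.146; limma adjusted p = 0.71), Ins2 by 0.21 (SE 0.147; 0.618), Gcg by 0.23 (SE 0.098; 0.46) and Iapp by 0.23 (SE 0.109; 0.483). With quantile normalization Gcg was at 0.024, Iapp at 0.027, Ins1 at 0.063 and Ins2 at 0.12. Ins1 was at 0.032, Ins2 at 0.10, Gcg at 0.20 and Iapp at 0.14 when cafeteria replicate 5 was left out.

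Other convertases and carboxypeptidases showed no gene past the test. Of 14 genes 11 were above the filter, 6 higher and 5 lower, with a median difference of 0.080 and 0 at an unadjusted limma p under 0.05. Those of lowest p were Mbtps1 (0.22, SE 0.120), the site-1 protease that activates sterol regulators, Pcsk7 (0.14, SE 0.093), a convertase found in most tissues, Rnpep (-0.12, SE 0.087), an aminopeptidase for basic residues, and Nrdc (0.11, SE 0.080), an endopeptidase that cuts before arginine in dibasic pairs. Their limma adjusted p-values ran from 0.524 to 0.624. The median turned to -0.006 with the acinar index as a covariate and was 0.022 without cafeteria replicate 2.

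Convertase helpers and enzymes that modify peptide ends gave 9 genes higher and 2 lower among 11 tested, where 51.4% of all tested probesets were higher. Their median was 0.071, with 0 at an unadjusted limma p under 0.05. Qpctl, the Golgi glutaminyl cyclase that forms N-terminal pyroglutamate, had the lowest p (0.28, SE 0.126; limma adjusted p = 0.479). Its standard arrays ran from 494.9 to 792.8 and its cafeteria arrays from 767 to 844, so the groups overlapped at one edge. Scg5, the 7B2 chaperone that Pcsk2 needs to mature, differed by 0.12 (SE 0.077; limma adjusted p = 0.591), and by -0.007 with quantile normalization. Slc31a1, which imports the copper that Pam uses, was at 0.14 (SE 0.0998) and Ero1b, an endoplasmic reticulum oxidase of islets, at 0.076 (SE 0.079). With quantile normalization the median of this list was 0.006.

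Among proton pump subunits and transporters 25 of 31 measured genes were tested and 19 were higher and 6 lower (median 0.079). Of all tested probesets 51.4% were higher. The amine transporters Slc18a1 and Slc18a2 were not among those tested, and not all of the zinc transporters listed act at granules. At an unadjusted limma p under 0.05, 1 was higher and 1 lower, beside 5.51% and 4.91% of all tested probesets. Both encode pump subunits: Atp6v0a1 (0.54, SE 0.191, limma adjusted p = 0.422) and Atp6v1d (-0.30, SE 0.098, limma adjusted p = 0.412). Atp6v1d ran from 5654 to 6682 in the standard group and from 4173 to 5979 in the cafeteria group. Of 9 tested zinc transporters 7 were higher and 2 lower, none past the test (limma adjusted p from 0.486 to 0.979). Slc30a5, of the Golgi and early secretory route, was at 0.29 (SE 0.137), followed by Slc30a7 (0.18), Slc30a3 (0.14, SE 0.391) and Slc30a6 (0.13). Slc30a3 was higher on the log2 scale only. Its mean signals were 114.1 in the standard and 109.0 in the cafeteria group, and its lowest standard array read 24.7. Slc30a9, Slc39a14 and Slc30a1 were at 0.051, 0.035 and 0.015, and Slc39a6 and Slc30a4 at -0.059 and -0.11. Slc30a5 was named by its low p in the list, and the other zinc transporters after their values were seen. Atp6v1h was at 0.18 (SE 0.104).

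Budding and maturation factors gave 17 genes higher and 8 lower among 25 tested (median 0.076), where 51.4% of all tested probesets were higher. At an unadjusted limma p under 0.05, 2 were higher and 0 lower, beside 5.51% and 4.91% of all tested probesets. Those 2 were the Golgi GTPases Arf1 (0.21, SE 0.089; limma adjusted p = 0.453), which recruits vesicle coats, and Arl1 (0.23, SE 0.102; limma adjusted p = 0.475), which recruits tethers at the trans-Golgi. The clathrin adaptor subunit Ap1s1 was at 0.22 (SE 0.106) and Ccdc186, which acts in granule maturation, at 0.24 (SE 0.126). The differences of Arf1 and Arl1 were 0.19 and 0.23 without cafeteria replicate 5, and 0.17 and 0.22 with quantile normalization.

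**Figure D4:**
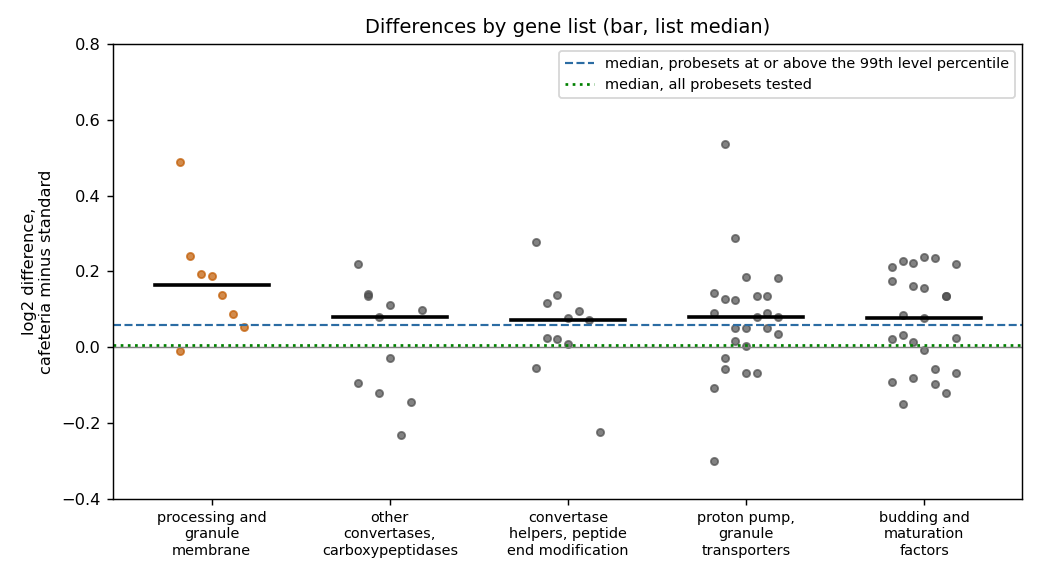
Log2 difference, cafeteria minus standard, of the brightest tested probeset of each gene (points) in 5 lists, with the list median as a bar. The 8 processing and granule membrane genes have a median of 0.16 and the other lists medians of 0.071 to 0.080, beside 0.059 for probesets at or above level percentile 99 (dashed) and 0.006 for all tested (dotted).

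Cell type markers and RNA quality were measured on the same arrays. The islet hormone cell index was 14.10 to 14.42 in the standard group and 14.34 to 14.65 in the cafeteria group (difference 0.16, exact permutation p = 0.0873); its part in the differences above was not tested. The immune index (17 of 18 markers measured, all 17 lower in the cafeteria group) ran from 7.59 to 9.16 and from 7.51 to 8.85 (-0.68, exact permutation p = 0.0952). The acinar index (15 of 16 measured) ran from 9.07 to 10.28 and from 8.13 to 10.15 (-0.43, exact permutation p = 0.349). Duct, endothelial and fibroblast indices differed by 0.23, 0.006 and -0.008 (exact permutation p = 0.151, 0.976 and 0.929). No marker was at 0 on all arrays. The GAPDH 3 prime to 5 prime ratio, which rises with degraded RNA, averaged 1.16 and 1.01 (exact permutation p = 0.0238), and that of beta-actin 2.81 and 2.65 (exact permutation p = 0.405). Once the model held the GAPDH ratio, the differences of Pam and Ica1 were 0.30 and 0.26 in place of 0.19 and 0.14, those of Cpe, Pcsk2 and Ptprn were 0.35, 0.26 and 0.64, and none passed adjustment (limma adjusted p from 0.442 to 0.544).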

How the data were processed

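Islet RNA of 10 rats' samples, 5 per diet, was read on a 1-colour Affymetrix array. The deposited values are linear intensity values made with MAS5, per the submitters' processing notes, with no version or detection calls; the authors' scaling shows in a mean of 500.1 to 500.2 on every array after trimming 2% at each end. The depth of an array is not counted, and the number of arrays limits precision. Symbols came from the platform annotation; all 11 probesets had a gene ID in RefSeq's GRCr8 table with the same symbol.

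Signals became log2(value + 14.15), the pseudocount being the 10th percentile of all values. Probesets with a mean above percentile 40 of non-control probesets were tested with limma 3.58.1 (R 4.3.3; 8 residual and 3.11 prior degrees of freedom), cafeteria against standard diet, with Benjamini-Hochberg adjustment and a threshold of 0.05; the script was tested on simulated data. Single genes were tested by exact two-sided permutation over every division into groups of 5. Members, lists and motifs were chosen with earlier results of these data known, so lists carry no test. Named from each list were up to 4 genes of lowest p, and the 3 likest to Pcsk2. Alternatives covered pseudocount, filter, scaling, variance, weights, block, covariates and each array left out.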

Additional observations from a re-analysis of the deposited data

Results flagged for a closer look

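In 38 groups of 5 arrays (11 probesets and 8 marker or quality measures in each diet), 3 contained a single array that stood apart under Dixon's test, which chance does in about 1 group in 20, or 1.9 here. All values are log2. Cafeteria replicate 5 was highest in its group for the bright Pam probeset, at 14.66 with the others from 14.18 to 14.28, and for Ptprn, at 13.87 with the others from 12.79 to 13.03. The immune index was highest in cafeteria replicate 3, at 8.85 with the others from 7.51 to 7.74.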

How the results depend on the processing

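Of 206 values of member probesets under 23 other settings of limma, 202 kept their direction and side of the threshold; since none passed with all arrays, keeping its side says little. Those that turned were Ptprn2 once the model held the acinar index (0.008) or GAPDH's 3 prime to 5 prime ratio (0.031) and without cafeteria replicate 1 (0.021; lowest when an array was left out, -0.052), and the dim Pam probeset with the immune index as a covariate (-0.025). The count of probesets past the threshold was 0 to 1 when each array was left out, the 1 being a probeset of Emp1 without standard replicate 2, and 0 under every other setting. Exact permutation p-values under median centring were 0.0794 for Pcsk2, 0.0714 for Cpe, 0.214 for Pam and 0.103 for Ptprn, and under quantile normalization 0.167 for Cpe, 0.111 for Pam and 0.0238 for Ptprn2. When each array was left out they ran from 0.00794 to 0.0635 for Cpe, 0.00794 to 0.0556 for Pam, 0.0159 to 0.0952 for Ptprn, 0.0476 to 0.937 for Ptprn2 and 0.00794 to 0.0317 for Pcsk2. The median of other convertases and carboxypeptidases was -0.006 with the acinar index and -0.011 with that ratio in the model, and 0.022 to 0.10 when each array was left out; that of the proton pump list was 0.017 with that ratio and 0.12 when the probesets of each gene were averaged. That of the budding and maturation list, 0.076 in the report, was 0.14 with averaged probesets, 0.024 with the filter at percentile 70, 0.039 with median centring and 0.046 with the ratio, each within the spread between arrays. The cause of the differences was not tested. Quantile normalization and centring change the scale of the arrays and cannot show it. In their titles, same-numbered arrays of the 2 groups are linked only by the replicate number. Their deviations correlated between -0.002 and 0.296, and 2 of 5 matched their own number best. These values cannot show whether such arrays were processed together. The replicate block left the count past the threshold at 0, with differences of 0.49 for Ptprn (adjusted p = 0.322) and 0.24 for Cpe (0.416). Before adjustment, limma with the block left Ptprn under the threshold (0.00468) and took Cpe (0.0639) and Pcsk2 (0.0818) above it, so the count of such members was 1 in place of 3. Without detection calls, dim probesets cannot be placed above background.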
